A study of Mus musculus with 6 samples.

Results

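The genes described here encode enzymes of the tricarboxylic acid (TCA) cycle, of pyruvate entry into mitochondria and of glutamine and glutamate metabolism. The list named 30 genes, and a gene was taken where a probe set carried its symbol alone in the platform annotation. Of these, 28 were measured among 18193 genes on the array, each by its brightest probe set. Gls2 and Mpc2 were not analysed here. The cells were T-cell acute lymphoblastic leukaemia (T-ALL) cells of genotype Notch1[delta]E mycGFP, sorted from the spleens of congenic recipients of strain C57BL/6. The labels give an age of 12 weeks and sampling at 4 weeks after transplantation. All cells compared were Notch1-deltaE+ and CD25+, and 3 independent leukaemias were derived. The MycGFP positive group held 3 arrays and the MycGFP negative group 3 arrays, each numbered 1 to 3, and GFP reports c-Myc. No group without Notch1-deltaE is included, and the sources used here do not state what drives it. The comparison asks how these metabolic transcripts differ between leukaemia cells with and without detectable MycGFP.

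The TCA cycle oxidises acetyl-CoA in the mitochondrial matrix and passes electrons to the respiratory chain. Pyruvate reaches it through the mitochondrial pyruvate carrier and the pyruvate dehydrogenase complex, and glutamine reaches it as glutamate and then alpha-ketoglutarate. Aspartate aminotransferases and malate dehydrogenases of cytosol and matrix together form the malate-aspartate shuttle, which carries reducing equivalents into the matrix. Proliferating lymphocytes and leukaemia cells also draw on the cycle for citrate and aspartate, from which lipids and nucleotides are made.

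Myc, on whose GFP reporter the sort was made, had intensities of 2628, 3390.5 and 2274 on MycGFP positive arrays 1, 2 and 3, against 801, 1135 and 1303 on MycGFP negative arrays 1, 2 and 3. This is a log2 difference of 1.37 (SE 0.24, limma adjusted p = 0.0329), which passed in 10 of 15 other settings. Of 9 markers of the T lineage and of the CD25 gate, 8 were measured and none lay below the array medians on all arrays. Cd5, a surface receptor of T cells, was called lower, with 469.5, 515 and 434 on positive and 772, 731 and 716 on negative arrays (log2 difference -0.65, adjusted p = 0.0411). Their summed intensity was 50551 to 59176 on positive and 59960.4 to 64417 on negative arrays. Summed myeloid markers (9 measured) ran from 181 to 2732 on positive and from 255 to 10628 on negative arrays, and in each group array 2 was the highest. Of the 9 myeloid markers 2 lay below the array medians on all arrays. B cell markers (6 measured, 2 of them dim in that sense) summed to 130.2 to 488 on positive and 224 to 765 on negative arrays. Erythroid markers (4, of which 1 dim) summed to 67.0 to 86.9 on positive and 70.4 to 97.8 on negative arrays, and NK cell markers (3, of which 2 dim) to 76.2 to 395 on positive and 184 to 298 on negative arrays. The T lineage sums did not overlap, with positive below negative. Markers of stroma and endothelium (4, of which 2 dim) summed to 249.5 to 354 on positive and 390.1 to 929 on negative arrays, without overlap. Most of this sum was Pecam1, at 305, 254 and 220 on positive and 669, 528 and 358 on negative arrays. Col1a1 added 244 on negative array 1. Col1a1 and Col3a1 overlapped between the groups, Cdh5 was dim, and none of the 4 was called. Sums over genes of cell division (11 measured) also did not overlap, at 40219 to 46945 on positive arrays and 7788 to 25111 on negative arrays. As measures of RNA integrity, 3′ over 5′ control signals were taken, and for Gapdh this ratio was 1.48 to 1.58 on positive and 1.582 to 1.89 on negative arrays, just without overlap, and that of Actb was 1.72 to 1.85 on positive and 1.54 to 1.87 on negative arrays, with overlap. The part of these transcripts and ratios in the differences below was not tested.

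Some genes of the TCA cycle, the malate-aspartate shuttle and pyruvate entry were higher in MycGFP positive cells, and no gene of the set passed the test in the other direction. Suclg2, Fh1, Idh3a, Got1, Got2 and Pdhx rose, by 1.95-fold to 4.06-fold. These are 6 of 28 measured genes, or 21.4%, where 4.62% of all genes tested were called higher (limma, adjusted p under 0.05 over all genes). None of 28 was called lower, where 1.51% of all genes were. At an unadjusted p under 0.05, 16 of 28 were higher and none lower. Of all 18193 genes, 2677 were higher and 1338 lower at that level. The median log2 difference over the 28 genes was 0.41, against 0.01 over all genes tested. For 18 of the 28, all 3 positive values lay above all 3 negative values, an arrangement found for 17.0% of all genes, and the reverse arrangement, found for 11.2% of all genes, did not occur. Among the brighter genes, above the median of all genes, 8 of 26 measured enzyme genes were called higher, against 11.2% of all such genes. The members share their arrays and were read from 6 arrays only, so these counts describe one comparison. The list was also chosen with earlier results of these data known, so its shares are descriptive and test nothing about the set. In sorted bulk cells, fewer cells of a type and less RNA per cell cannot be told apart.

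No gene of the set was called without positive array 1, 2 or 3 or without negative array 2. The smallest adjusted p among the 28 was then 0.0568, 0.0637, 0.0662 and 0.0512, with median log2 differences of 0.42, 0.46, 0.50 and 0.41. At an unadjusted p under 0.05, 13, 12, 12 and 12 genes of the set were higher and none lower in these fits. Of all 18193 genes, 2311, 2209, 2344 and 2244 were higher and 1137, 976, 1093 and 1182 lower at that level. Without negative array 3, Glul (log2 difference -0.64, adjusted p = 0.13) and Me1 (log2 difference -0.71, adjusted p = 0.204) were lower at that unadjusted level, and 5 genes of the set were still called higher. In that fit 1311 of all 18193 genes were lower at the unadjusted level, and 586 were called higher.

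**Figure D1:**
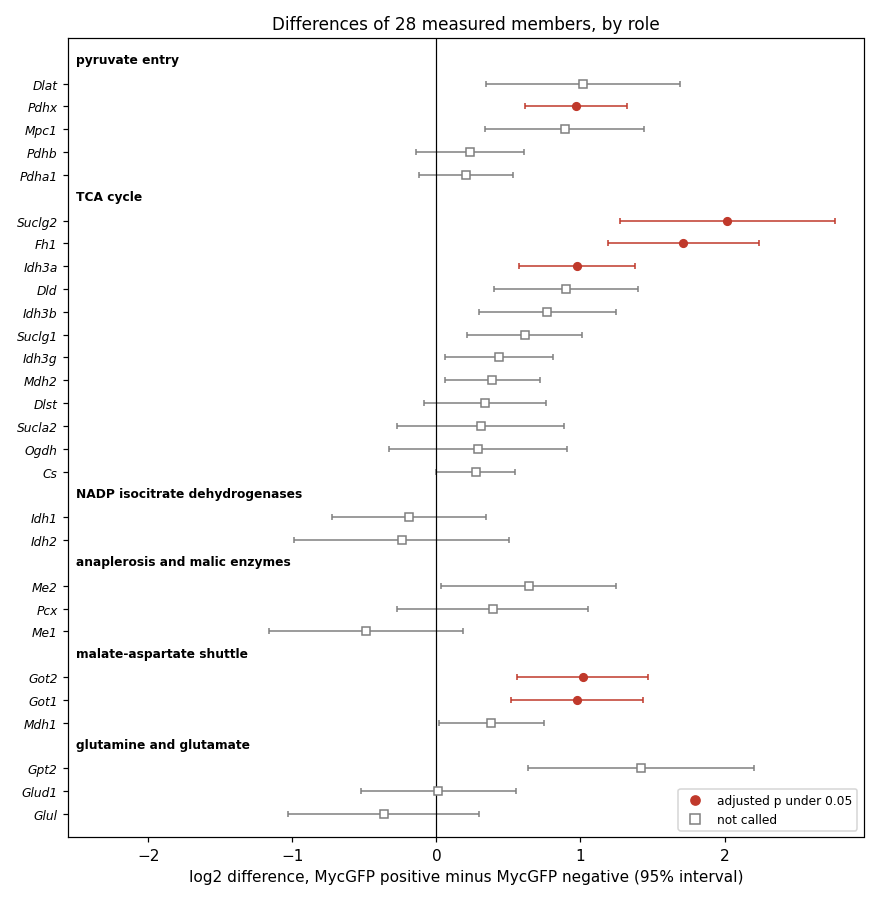
Log2 difference between MycGFP positive and MycGFP negative cells for each measured gene, with limma's 95% interval, grouped by role. Filled red circles passed an adjusted p of 0.05, open grey squares did not. All 12 TCA cycle genes lie right of 0, as do 9392 of all 18193 genes tested, and the genes for NADP-dependent isocitrate dehydrogenases lie left of it.

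Of 12 genes of the TCA cycle itself, 3 rose and 9 were not called, and all 12 differences were above 0, at a median of 0.52. A difference above 0 was found for 9392 of all 18193 genes, and 4.62% of all genes were called higher. Suclg2, the beta subunit that makes succinyl-CoA ligase specific for GDP, had the largest difference of the set. Its intensity was 691, 1386 and 794 on positive arrays 1, 2 and 3, against 244, 176 and 266 on negative arrays. The groups were far apart, and positive array 2 stood above the other positive arrays. Suclg2 was 4.06-fold higher, with a log2 difference of 2.02 and an SE of 0.31 (limma, adjusted p = 0.0243). A second Suclg2 probe set read 496, 874 and 511 on positive and 169.9, 109 and 175 on negative arrays, a log2 difference of 2.03 (adjusted p = 0.0204 among 34945 probe sets with a symbol).

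Fh1 encodes fumarate hydratase, which turns fumarate into malate. It had intensities of 1924, 1941 and 2092 on positive arrays and 814, 475 and 575 on negative arrays. Positive values lay close together and well above the negative ones, which spread more widely. Fh1 averaged 1986 ± 92.4 in positive and 621 ± 174 in negative cells (SD, n = 3 each), a 3.28-fold rise (log2 difference 1.71, SE 0.22, limma adjusted p = 0.0168). Its only probe set and both Suclg2 probe sets belong to types that can match several transcripts.

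Idh3a is the catalytic subunit of the NAD-dependent isocitrate dehydrogenase, which makes alpha-ketoglutarate in the cycle. Values were 2314, 2351 and 2509 on positive arrays and 1184, 1029 and 1476 on negative arrays, without overlap. The rise was 1.96-fold (log2 difference 0.97, SE 0.17, limma adjusted p = 0.0309). A second bright Idh3a probe set had a log2 difference of 1.06 (adjusted p = 0.0211 among all probe sets with a symbol). The other subunits of this enzyme, Idh3b and Idh3g, were not called, although their groups did not overlap either. Idh3b read 1300.2, 1319 and 1049 on positive and 888, 589 and 694 on negative arrays (log2 difference 0.77, adjusted p = 0.078), and Idh3g differed by 0.44 (adjusted p = 0.165).

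Subunits of succinyl-CoA ligase did not all behave like Suclg2. Suclg1, the alpha subunit used with either beta subunit, read 609, 601 and 663 on positive and 485, 342 and 409.6 on negative arrays, a log2 difference of 0.61 (adjusted p = 0.0879). Sucla2, the beta subunit specific for ADP, overlapped between groups, at 2239, 1578 and 1620.2 on positive and 1116, 1836 and 1472 on negative arrays. Its log2 difference of 0.31 had a 95% interval of -0.27 to 0.89.

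Dld, the dihydrolipoamide dehydrogenase shared by the alpha-ketoglutarate and pyruvate dehydrogenase complexes, read 571, 513 and 589 on positive and 395, 274 and 245 on negative arrays. Without overlap, its log2 difference of 0.90 missed the threshold (limma adjusted p = 0.0593). Ogdh and Dlst, the other components of the alpha-ketoglutarate dehydrogenase complex, differed by 0.29 and 0.34, with 95% intervals of -0.33 to 0.91 and -0.09 to 0.76. Citrate synthase, Cs, which starts the cycle, was among the brightest of the set. Cs had 7240.04, 6839 and 7042 on positive and 5856, 5983 and 5648 on negative arrays, a small but separated difference of 0.27 (95% interval -0.0015 to 0.55, adjusted p = 0.229). Mdh2, the malate dehydrogenase of the matrix, differed by 0.39 (adjusted p = 0.163), also without overlap.

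**Figure D2:**
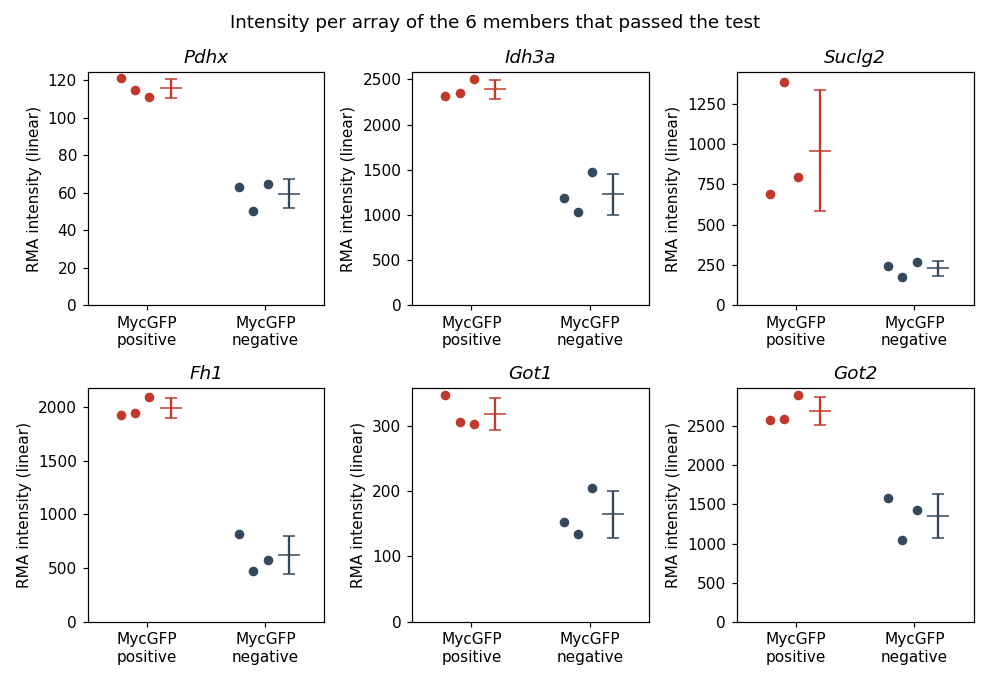
RMA intensity on a linear scale, from 0, for each of the 6 genes that passed the test. Each point is an array, with MycGFP positive in red at the left and MycGFP negative in dark grey at the right, and bars give the mean and SD of 3 arrays. In every panel the 3 positive points lie above the 3 negative points.

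Promoter sequences are shown for the largest rises, Suclg2 and Fh1, and for Ogdh, a gene of the set that holds the sequence MYC and MAX bind best, the E-box CACGTG. Each is the stretch of 250 bases before a transcription start, from RefSeq on GRCm38.p6, read 5′ to 3′ on the gene's strand. Capitals mark CACGTG and the GC box GGGCGG or its complement CCGCCC, the motif of SP1-type factors. Suclg2 lies on the minus strand at chr6:95718847-95719096, Fh1 on the minus strand at chr1:175625636-175625885, and this Ogdh start on the plus strand at chr11:6291920-6292169.
Suclg2: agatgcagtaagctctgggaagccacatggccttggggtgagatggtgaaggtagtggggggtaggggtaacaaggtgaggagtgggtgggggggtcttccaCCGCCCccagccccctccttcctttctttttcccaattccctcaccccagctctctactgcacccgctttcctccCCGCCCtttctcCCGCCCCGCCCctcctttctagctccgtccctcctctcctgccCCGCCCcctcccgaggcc
Fh1: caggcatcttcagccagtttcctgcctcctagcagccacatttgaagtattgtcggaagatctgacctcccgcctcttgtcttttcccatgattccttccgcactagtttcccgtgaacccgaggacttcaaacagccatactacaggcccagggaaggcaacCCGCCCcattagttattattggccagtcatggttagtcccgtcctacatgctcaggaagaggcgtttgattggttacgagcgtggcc
Ogdh: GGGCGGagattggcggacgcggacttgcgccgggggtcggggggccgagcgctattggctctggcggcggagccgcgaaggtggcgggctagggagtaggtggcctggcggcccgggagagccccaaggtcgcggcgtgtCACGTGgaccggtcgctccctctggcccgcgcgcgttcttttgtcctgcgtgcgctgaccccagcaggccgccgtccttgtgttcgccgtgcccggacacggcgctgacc
In the Suclg2 stretch 5 GC box matches occur, of which one pair overlaps by a base, and the Fh1 stretch has 1. The Ogdh stretch has 1 of each motif, with its E-box starting 110 bases before the start site. This E-box sits in a gene whose transcript was not called.

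Windows of 300 bases, from 250 before to 50 after each start, were searched on both strands for 26 of the 28 measured genes, since RefSeq windows were at hand for those. CACGTG occurred in 2 of 26 genes (7.69%), Ogdh and Pcx, against 10.2% of all tested genes with a window and 8.09% of all genes with one. Counted by window the order was reversed, with 4 of 35 windows (11.4%) against 8.72% of windows of tested genes. Ogdh and Pcx have several starts each, and only some of their windows held CACGTG. Of the 6 genes that rose, 5 had a window, and none of those held CACGTG. Among the called pathway genes outside the set, described below, Slc25a13 held CACGTG, starting 125 bases before its start site. The windows of Sdhd, Pdk3, Lipt2, Oat and Pcca did not, and none was at hand for Sdhc. The ETS core CCGGAAG occurred in 5 of 26 genes (19.2%), against 15.0% of tested genes and 9.93% of all genes with a window, and in 0 of the 5 genes that rose. GGGCGG occurred in 19 of 26 (73.1%), against 57.3% of tested genes and 38.2% of all genes with a window. It was in the windows of Suclg2, Fh1 and Pdhx and not in those of Got1 and Got2. A match is only a match of letters, and its absence concerns these windows alone.

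Of 5 measured genes for pyruvate entry, Pdhx rose and the other 4 were not called, where 4.62% of all genes tested were called higher. Pdhx encodes the component that anchors dihydrolipoamide dehydrogenase to the core of the pyruvate dehydrogenase complex. It was tightly grouped at a modest intensity, with 121, 115 and 111 on positive arrays and 63.2, 50.5 and 64.7 on negative arrays. Its 1.95-fold rise corresponds to a log2 difference of 0.97 with an SE of 0.15 (limma, adjusted p = 0.0233). Dlat, the core acetyltransferase of that complex, read 768, 451 and 479 on positive and 323, 205 and 302 on negative arrays. Its difference was of similar size, 1.02, but positive array 1 stood far above the others of its group and the gene was not called (SE 0.28, adjusted p = 0.0915). With the array number as a block Dlat passed (adjusted p = 0.0455).

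Mpc1, a subunit of the mitochondrial pyruvate carrier, had 1301, 778 and 865 on positive and 526, 455 and 574 on negative arrays, again with positive array 1 highest (log2 difference 0.89, adjusted p = 0.0775). The subunits of the decarboxylating component were steadier. Pdha1 read 4389, 4438 and 5129.97 on positive and 3996, 3759 and 4352 on negative arrays, a difference of 0.20 with a 95% interval of -0.12 to 0.53. Pdhb differed by 0.23, with an interval of -0.14 to 0.61. A second Pdhb probe set read 100.4, 41.4 and 148 on positive and 34.3, 28.7 and 38.5 on negative arrays, where it lay near the array medians and so near background, and it was not called (adjusted p = 0.15 among all probe sets with a symbol).

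In the malate-aspartate shuttle both aspartate aminotransferase genes rose and the groups of all 3 genes were apart. Over all genes tested, 4.62% were called higher, and 17.0% had all 3 positive values above all 3 negative values. Got2, the matrix enzyme, read 2585, 2600.1 and 2898 on positive arrays and 1582, 1046 and 1428 on negative arrays. It was 2.02-fold higher (log2 difference 1.01, SE 0.19, limma adjusted p = 0.0355). A further Got2 probe set, at 1419.8, 1165 and 1306 on positive and 490.2, 469.7 and 556 on negative arrays, differed by 1.36 (adjusted p = 0.0122 among all probe sets with a symbol).

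Got1, the cytosolic enzyme, read 347, 306 and 303 on positive and 154, 135 and 205 on negative arrays. The rise was 1.97-fold (log2 difference 0.98, SE 0.19, limma adjusted p = 0.0397), and under the block by array number Got1 no longer passed (adjusted p = 0.0558). Centring arrays on their medians ended the calls of both Got1 (adjusted p = 0.0675) and Got2 (0.055). Mdh1, the cytosolic malate dehydrogenase, had 6399.7, 5827 and 6412 on positive and 5611, 4408 and 4375 on negative arrays. Its groups did not overlap, yet its log2 difference of 0.38 was not called (adjusted p = 0.206). A further Mdh1 probe set read 3686, 3520 and 3652 on positive and 2576, 2041 and 2396 on negative arrays. It differed by 0.64 and was not called (limma adjusted p = 0.0505 among all probe sets with a symbol). Another bright one differed by 0.41, and those near or below the array medians by -0.149 and -0.145.

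Neither isocitrate dehydrogenase that uses NADP was called. Idh1, of cytosol and peroxisomes, read 2589.9, 3931 and 3636 on positive and 3746, 4564 and 3208 on negative arrays, and Idh2, of the matrix, 639.9, 751 and 1075 on positive and 877, 710.1 and 1368 on negative arrays. The groups overlapped for both genes. The log2 differences were -0.19 (95% interval -0.72 to 0.34) and -0.24 (95% interval -0.99 to 0.51), so a change of either sign is within the interval. No call was made for pyruvate carboxylase or the malic enzymes. Pcx, which makes oxaloacetate from pyruvate, lay near the array median at 41.9, 25.5 and 20.9 on positive and 22.8, 19.1 and 22.8 on negative arrays. Me1, the cytosolic malic enzyme, was below the array medians on all 6 arrays, with 11.5, 17.1 and 19.3 on positive and 24.7, 26.2 and 16.2 on negative arrays, and such signals may be background. Me2, the NAD-dependent malic enzyme of mitochondria, read 1525, 1738 and 1994 on positive and 1575, 1019 and 870.4 on negative arrays. Its groups overlapped through negative array 1 (log2 difference 0.64, adjusted p = 0.204). A second bright Me2 probe set read 1085, 834 and 883 on positive and 590, 516 and 323 on negative arrays, without overlap. It was not called (log2 difference 1.01, limma adjusted p = 0.0733 among all probe sets with a symbol). Less bright Me2 probe sets differed by 0.024 and -1.31, with overlap.

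None of the 3 measured genes of glutamine and glutamate metabolism was called, and their differences ran from -0.37 to 1.42. Gpt2, the mitochondrial alanine aminotransferase, which joins glutamate use to pyruvate, had 467, 1051 and 664 on positive and 204, 289.7 and 287 on negative arrays. All positive values were higher, array 2 again the highest, with a log2 difference of 1.42 that missed the threshold (SE 0.32, limma adjusted p = 0.0584). Under the block by array number Gpt2 passed (adjusted p = 0.0329), and a further Gpt2 probe set differed by 1.32 (adjusted p = 0.0282 among all probe sets with a symbol). Glud1, glutamate dehydrogenase, overlapped between the groups, at 764, 615 and 541 on positive and 622, 502 and 792 on negative arrays. Its log2 difference was 0.01, with a 95% interval of -0.53 to 0.55. Glul, glutamine synthetase, read 6036, 5067 and 4337 on positive and 8114, 7831 and 4476 on negative arrays. Negative array 3 lay among the positive ones, and the difference of -0.37 was not called (95% interval -1.03 to 0.30).

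Within-array ratios were compared for 7 pairs of related enzymes, by exact permutation tests (two-sided, 3 against 3), whose smallest possible p is 0.1. In 3 pairs the groups did not overlap, each with exact p = 0.1 and 0.233 after Benjamini-Hochberg adjustment over the 7. The log2 ratio of Sucla2 over Suclg2 shifted by -1.71 (positive minus negative), that of Idh3a over Idh2 by 1.21, and that of Me1 over Me2 by -1.13, the last with a dim numerator. The ratio of Got1 over Got2 shifted by -0.039, Mdh1 over Mdh2 by -0.0057, Pdha1 over Pdhb by -0.028 and Idh1 over Idh2 by 0.051, all with overlap. A design of this size cannot reach 0.05 for any of them. Without both arrays numbered 2 the Sucla2 over Suclg2 shift was -0.97. When all probe sets of a gene were averaged, Pdha1 over Pdhb shifted by -0.59, Got1 over Got2 by 0.31 and Me1 over Me2 by -0.76. These averages took in probe sets near background on negative arrays, with log2 differences of 1.34 for Pdhb and 0.22 and 0.063 for Got2. The bright Got2 probe sets differed by 1.01 and 1.36. Without probe sets of types that can match several transcripts, Got1 over Got2 shifted by -0.38, Idh3a over Idh2 by 1.84 and Me1 over Me2 by -1.50.

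Each gene was centred on its mean over 6 arrays, and the median over the 28 genes was 0.30, 0.15 and 0.29 (log2) on positive arrays 1, 2 and 3. On negative arrays it was -0.11, -0.46 and -0.20. Negative array 2 was the lowest of the 6 arrays for 17 of 28 genes, and it also held the most myeloid marker signal. Positive array 3 was the highest for 11 genes and positive array 1 for 9. The cell division genes, centred in the same way, had medians of 1.03, 0.88 and 0.86 on positive arrays and -0.13, -1.17 and -1.86 on negative arrays. By these medians, negative array 3 was lowest for division genes and negative array 2 for the enzymes. In both lists every positive median lay above every negative one. Any link of the enzyme levels to division genes or myeloid signal was not tested.

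**Figure D3:**
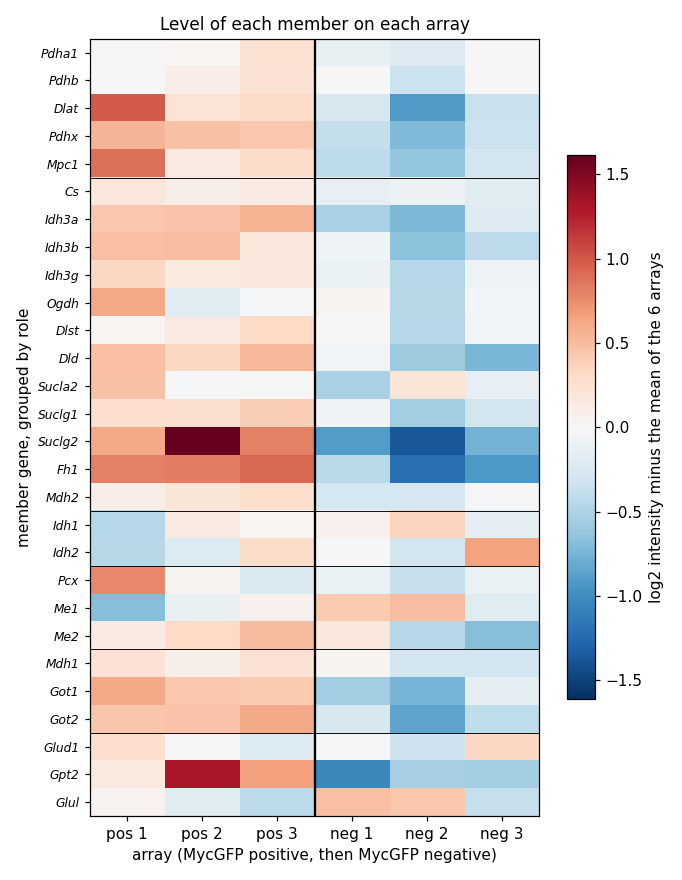
Log2 intensity of each of 28 genes on each of 6 arrays, minus that gene's mean, with MycGFP positive arrays at the left and horizontal lines between roles. Red is above and blue below the gene's mean. Suclg2, Fh1 and Gpt2 show the strongest contrast, and negative array 2 has the most blue cells of deep shade.

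Among 52 other genes of these pathways, 46 were measured, 7 were called higher and none lower, and the median log2 difference was 0.44. That is 15.2%, where 4.62% of all genes were called higher. This list too was chosen with earlier results of these data known, so the share is descriptive. For 19 of the 46 the groups were apart with positive above negative, an arrangement found for 17.0% of all genes. The reverse arrangement, found for 11.2% of all genes, did not occur. The other 6 genes were not analysed here.

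Succinate dehydrogenase, the cycle enzyme that is also part of the respiratory chain, had both membrane anchor genes called. Sdhc read 1162, 939 and 1173 on positive and 728, 573 and 602 on negative arrays (1.72-fold, limma adjusted p = 0.0468). Sdhd read 1694, 1513 and 1527 on positive and 915, 858 and 1098 on negative arrays (1.66-fold, adjusted p = 0.0438), and lost its call under the block (0.0638). Both calls were lost with centred arrays, with quantile normalization and with a trended, robust variance, at adjusted p of 0.0879, 0.0559 and 0.0758 for Sdhc and 0.088, 0.0556 and 0.0652 for Sdhd. All 8 measured genes of the enzyme and its assembly factors had positive values above negative ones, Sdha and Sdhb included, at unadjusted p under 0.05. Of all genes, 17.0% had this arrangement, and 2677 of 18193 were higher at that level. As the mean of its probe sets, Sdha differed by -0.044 (limma adjusted p = 0.953). Among all probe sets with a symbol, a second one of Sdhc differed by 0.42 (limma adjusted p = 0.161), and one of Sdhd by 1.13 (0.0396).

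Lipt2, which starts lipoate attachment to the dehydrogenase complexes, had 74.8, 72.02 and 71.5 on positive arrays and 10.7, 16.1 and 11.8 on negative arrays. The negative values lay below the array medians, so the 5.73-fold difference compares a modest signal with one near background (limma adjusted p = 0.0103). With 16 added to each intensity the log2 difference was 1.62, against 2.52 without. Pdk3, a kinase that inhibits pyruvate dehydrogenase, read 412, 346 and 319.6 on positive and 202, 178 and 194 on negative arrays (1.87-fold, adjusted p = 0.0277), and lost its call with centred arrays (0.0536) and with a trended, robust variance (0.0676). Its bright relative Pdk1 differed the other way and was not called, at 3379, 6514 and 5623 on positive and 6143, 9363 and 6502 on negative arrays (log2 difference -0.53, 95% interval -1.26 to 0.19).

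Slc25a13, the aspartate-glutamate carrier citrin of the malate-aspartate shuttle, was one of the clearest rises, with 639, 543 and 582 on positive and 198, 156 and 216 on negative arrays. It was 3.12-fold higher (log2 difference 1.64, SE 0.17, limma adjusted p = 0.0116). Its relative Slc25a12 overlapped between the groups (log2 difference 0.16, 95% interval -0.61 to 0.94). Oat, ornithine aminotransferase, which links glutamate to ornithine, read 738, 767 and 629.5 on positive and 320.1, 365 and 282 on negative arrays (2.21-fold, adjusted p = 0.0192). Pcca, a subunit of propionyl-CoA carboxylase, which feeds succinyl-CoA, read 241, 233 and 269.6 on positive and 159, 146 and 174 on negative arrays (1.55-fold, adjusted p = 0.0492), and lost its call under the block (0.0588). Acly, which splits exported citrate, was bright and overlapped, at 7867, 8749 and 8114 on positive and 8014, 10304 and 8031 on negative arrays.

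**Figure D4:**
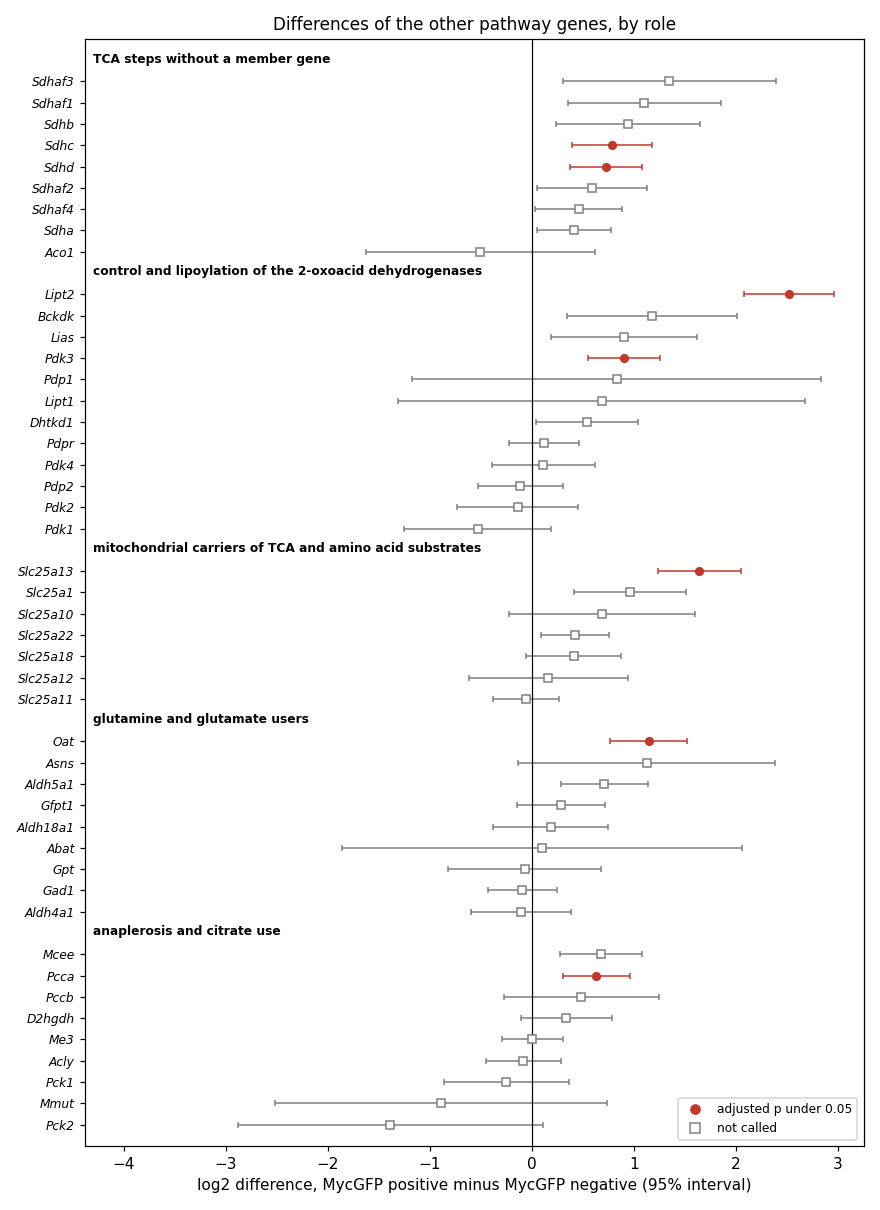
Log2 difference between MycGFP positive and MycGFP negative cells, with limma's 95% interval, for 46 measured genes of the same pathways outside the set, grouped by role. Filled red circles passed an adjusted p of 0.05 and open grey squares did not. Lipt2 and Slc25a13 lie farthest right of the 7 that passed, and all succinate dehydrogenase genes lie right of 0.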

How the data were processed

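RNA of sorted cells, 5 ng per sample, was amplified and hybridised to Affymetrix mouse arrays, per the labels' protocols. The authors' deposited values are probe set intensities made with RMA, per the submitters' processing notes, and are on a linear scale, so log2 was taken first. RMA scales arrays to each other, which hides a change in total RNA per cell. Probe sets with 1 symbol (34945 of 45101) were kept, 34741 of them renamed by Entrez identifier through RefSeq (GRCm38.p6), and the brightest per gene was tested. The fit used limma 3.58.1 in R 4.3.3 (lmFit, eBayes, no covariate, two-sided, Benjamini-Hochberg over 18193 genes, threshold 0.05) and was tested on simulated data. SE and intervals are limma's, and folds are antilogs of log2 differences. Arrays give no detection calls here, and their number limits the precision.

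The members and lists were chosen with earlier results of these data known. Named were all measured members, Myc, and other pathway genes that passed the test (at most 12); Sdha, Sdhb, Pdk1, Slc25a12, Acly, Mmut, Aco1 and Cd5 were added after their values were seen.

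Both groups carry array numbers 1 to 3. After group means were subtracted, arrays of like number correlated across genes at r = 0.38, 0.21 and 0.39, and the others at -0.32 to -0.03. The subtraction ties these values to each other, since a positive r for like numbers pushes the others below 0. Their contrast is thus partly arithmetic. The numbers were taken as pairs only in the alternative fit with the array number as a block. The main fit, which gave the reported calls, SE and intervals, pairs no arrays. No label ties a number to a leukaemia, and the Y-linked Eif2s3y differs within numbers 2 and 3. The alternatives left out each array and changed the block, scaling, probe set choice, dim filter, pseudocount (16), variance model and array weights.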

Additional observations from a re-analysis of the deposited data

How the results depend on the processing

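Over 16 other settings no enzyme gene was called lower. The number called higher, 6 as reported, was 0 to 5 when each array was left out in turn, 7 with the replicate block, which also moved calls of all genes to 1047 higher and 354 lower, and 4 to 8 in the other settings that kept all 6 arrays. The gene counts without single arrays ran from 0 to 862 higher and from 0 to 238 lower. Without both arrays numbered 2, a setting chosen after the data were seen, 0 genes were higher and 0 lower and 0 enzyme genes passed (limma, smallest adjusted p = 0.201), with 10 enzyme genes higher at an unadjusted p under 0.05 and 1728 genes above and 759 below at that level. Leaving out positive array 2 ended every call, with 2209 genes above and 976 below at an unadjusted p under 0.05 and a smallest adjusted p of 0.0591. Fewer arrays leave fewer residual degrees of freedom in these fits. Centring arrays on their medians moved the median of all genes to -0.14, against 0.01 as reported, so that 502 genes were higher and 381 lower, and the median of the enzyme genes to 0.26. In that fit 56.9% of calls were higher, against 75.3% as reported. Quantile normalization gave 5 enzyme genes, Got1 missing at adjusted p = 0.0544, and a trended, robust variance gave 4, without Pdhx (0.0504) and Got1 (0.0733).

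Among the enzyme genes, Glud1, Idh2 and Sucla2, which were not called, changed sign, and the cause was not tested. Glud1 ran from -0.149 to 0.18 without single arrays, with -0.12 without positive array 1 and -0.149 without negative array 2, and was -0.14 with centred arrays, -0.056 with quantile normalization, -0.037 with array weights and -0.13 without both arrays numbered 2. Idh2 ran from -0.45 to 0.024 without single arrays, above 0 without negative array 3, and Sucla2 was -0.049 as the mean of its probe sets. The bright Sucla2 probe set differed by 0.31, and the others in that mean, all dim, by -0.35 and -0.10. Got1 kept its call in 6 of 16 settings, Got2 in 9, Pdhx and Idh3a in 10, and Fh1 and Suclg2 in 10 of 15, since neither has a probe set left without types that can match several transcripts. Of the other pathway genes, Lipt2 kept its call in 13 of 15 settings, Slc25a13 in 13 of 16, Oat in 11, Pdk3 in 8, Sdhd in 6 and Pcca in 3 of 16, and Sdhc in 5 of 15. Slc25a12, Acly, Aco1 and Sdha, not called, changed sign in some settings. Slc25a12 was -0.31 as the mean of its probe sets and -0.17 without negative array 3. Acly was 0.050 without probe sets of types that can match several transcripts, and Aco1 0.042 without both arrays numbered 2. The replicate block ended the calls of Got1, Sdhd and Pcca and added Dlat and Gpt2, and changed no other call among the enzyme genes, the 7 pathway genes called, Myc, Sdha, Sdhb, Pdk1, Slc25a12, Acly, Mmut and Aco1. Eif2s3y, a Y-linked gene that can tell male from female cells, read 2127, 124.5 and 185 on positive arrays 1, 2 and 3, against 3174, 1038 and 40.2 on negative arrays, so arrays of like number are far apart for numbers 2 and 3.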

Other observations

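Several probe sets of the enzyme genes were not used above because another was brighter. Of 39 such probe sets of 22 genes, 30 had a mean intensity above the mean of the array medians, 24 of them with the sign of the reported difference and 6 with the opposite sign. A second Idh2 probe set read 339.6, 719 and 456 on positive and 641, 1048 and 837 on negative arrays (log2 difference -0.78, limma adjusted p = 0.222 among all probe sets with a symbol). One of Dlst, at 289, 246 and 232 on positive and 358, 459 and 348 on negative arrays, was separated with negative above positive, opposite to the brightest Dlst probe set (log2 difference -0.60, adjusted p = 0.0951).

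Negative array 2 stood apart for Mmut, Aco1 and a probe set of Me2. Mmut, methylmalonyl-CoA mutase, read 733, 967 and 960.3 on positive arrays and 673, 4595 and 1403 on negative arrays. Aco1, the cytosolic aconitase that also binds iron-responsive elements, read 418, 475 and 565 on positive and 422, 1438 and 527 on negative arrays. A less bright Me2 probe set read 66.7, 61.02 and 65.9 on positive and 50.5, 776 and 105 on negative arrays. None of these passed the test.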
